A study of Populus cathayana with 4 samples.

Results

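Glycosyltransferases of named CAZy families were described in the leaves of Populus cathayana, a poplar in which each tree is either male or female. CAZy is a classification of carbohydrate-active enzymes by sequence, and GT families are its glycosyltransferase families. The genes were chosen by the wording of their best database hit, which had to name a CAZy GT family and not a cellulose synthase, and by at least 2 counts over all libraries. This gave 15 of the 19100 listed genes, 12 of family GT8 and 1 each of families GT43, GT2 and GT47. Many other glycosyltransferases carry a different wording or no informative description, so the 15 are a part of the enzyme class in these leaves.

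The libraries came from potted cuttings kept in a greenhouse and treated for 100 days. Ambient-UV-B females, reduced-UV-B females, ambient-UV-B males and reduced-UV-B males gave 1 library each, 4 in all. Each library pooled RNA of the fourth fully expanded leaves of 9 plants, so no value below has a replicate error, and a difference between pools cannot be told apart from a difference between the plants drawn. In that order, the library totals make 1 count worth 0.231, 0.228, 0.238 and 0.234 CPM (counts scaled to the same total in each library, with no correction for length), and the totals themselves were 4.32, 4.39, 4.21 and 4.28 megatags. The rows listed in the table held 14.4%, 15.0%, 17.2% and 14.9% of these totals. The summed level of 16 rows described as photosystem, chlorophyll a/b or rubisco genes was 200, 264, 126 and 158 CPM, so leaf transcripts were found in each library. Fewer cells of a type and less RNA per cell cannot be told apart in such samples.

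Glycosyltransferases move a sugar from an activated donor, often a UDP-sugar, to another sugar, a protein or a small molecule. In plants many of them sit in the Golgi and build pectin and the hemicelluloses xylan and xyloglucan, which are exported to the cell wall. Family GT8 holds galacturonosyltransferases of pectin synthesis, enzymes that add glucuronic acid to xylan, and galactinol synthases. Family GT43 holds enzymes needed for the xylan backbone, GT47 holds enzymes of xylan, xyloglucan and pectin synthesis, and GT2 holds the cellulose synthases and their relatives. These roles are known mainly from Arabidopsis thaliana and belong to the families; the files do not say which step each poplar gene serves.

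No sequence is shown, since neither the table nor the labels give one for these genes. The 15 genes came from 15 loci with 15 different hits, and no other transcript of these loci is listed. A tag of 17 bp can be shared by duplicated poplar genes, and the labels do not say how such tags were counted, so counts of closely related GT8 genes are uncertain in that respect. Gene ontology terms were not used to choose the genes. Of the 15, 11 carried the term UDP-glycosyltransferase activity, 4 the term glucuronoxylan metabolic process (glucuronoxylan is the xylan of hardwood cell walls), 1 pectin biosynthetic process, 3 carbohydrate metabolic process, and 5 no process term. Potri.013G082200.1 of family GT2 carried the term cellulose synthase activity, although its description does not name a cellulose synthase.

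Most of these genes were scarce. Over the 4 libraries 12 genes had at least 10 counts and 3 had fewer, and of the 12 only 4 reached 50 counts. Counts were present in every library for 7 of the 15 genes. Genes at 0 counts numbered 6 in ambient-UV-B females, 2 in reduced-UV-B females, 3 in ambient-UV-B males and 4 in reduced-UV-B males. The table holds no count of 1, so a listed 0 can stand for 0 or 1 tag. For printed ratios a 0 was set at a floor of 3 counts, 0.683 to 0.713 CPM. The two-sided exact 95% limit of a count of 0 is wider, at 0.840 to 0.877 CPM, and it would be wider still if 1 tag was present. The 2-fold criterion between libraries did not use the floor, so a 0 passed it against any count above 0. Medians had 0.5 added to each count unless stated otherwise.

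**Figure D1:**
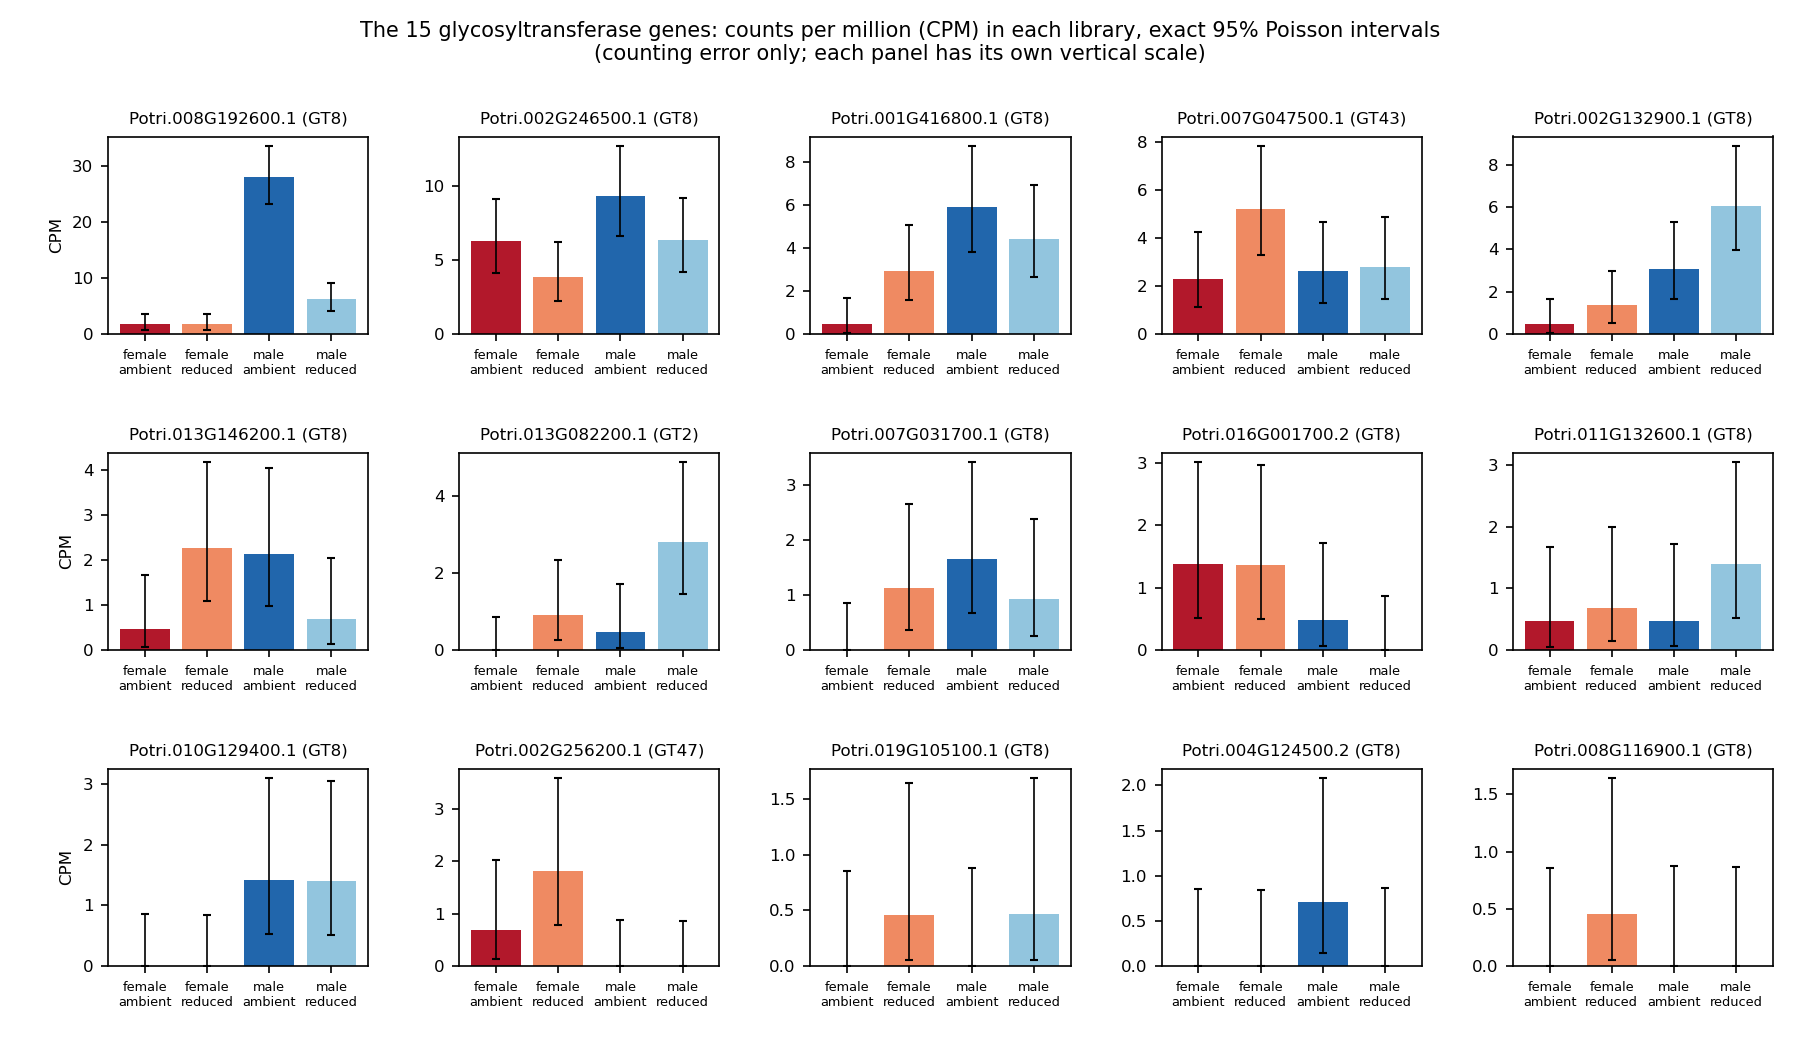
Level of each of the 15 glycosyltransferase genes in CPM (vertical axes, 1 scale per panel) in the 4 libraries (horizontal axes), ordered by summed counts. Bars are the values and whiskers the exact 95% Poisson intervals, which cover counting error only. Potri.008G192600.1 in ambient-UV-B males stands at 28.0 CPM, against at most 9.27 CPM for any other gene in any library.

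Potri.008G192600.1, a GT8 gene with the term UDP-glycosyltransferase activity and no process term, had the most counts of the 15 and the widest range. It had 8 counts in ambient-UV-B females, 8 in reduced-UV-B females, 118 in ambient-UV-B males and 27 in reduced-UV-B males. In CPM these were 1.85, 1.82, 28.0 and 6.31. The gene was thus low in the female libraries under either UV-B level and high in ambient-UV-B males, with the other male library between them.

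In males the level of Potri.008G192600.1 was 4.45-fold higher under ambient than under reduced UV-B, a log2 ratio of 2.15 (exact 95% counting interval 1.54 to 2.81, adjusted p = 1.7e-13 by an exact test on the counts of these libraries). Of 3478 genes with at least 100 counts, 23 had a male UV-B ratio at or above that of this gene, itself included. In females its log2 UV-B ratio was 0.02 (interval -1.59 to 1.63), so the 8 and 8 counts leave room for more than a 2-fold change either way. Under ambient UV-B its level in females was 15.2-fold lower than in males (log2 ratio -3.92, interval -5.17 to -2.90, adjusted p = 2.1e-25 by the exact test). Under reduced UV-B the log2 ratio of females over males was -1.79 (interval -3.14 to -0.61, adjusted p = 0.006 by the exact test), which did not pass the threshold of 0.001. With an assumed coefficient of variation of 0.3 among pools the male UV-B call was lost (adjusted p = 0.26 by edgeR's exact test) and the call between the sexes under ambient UV-B was kept (2.7e-04). Under that assumption 0 higher and 5 lower of the 10741 tested genes stayed called for UV-B in males, and 46 and 77 for females over males under ambient UV-B. The male UV-B comparison and the comparison of the sexes under ambient UV-B share the library of ambient-UV-B males, so they are not independent of each other.

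The summed level of the 12 GT8 genes was 11.3 CPM in ambient-UV-B females (exact 95% Poisson interval 8.38 to 15.0), 16.4 CPM in reduced-UV-B females (12.8 to 20.6), 53.2 CPM in ambient-UV-B males (46.5 to 60.7) and 28.0 CPM in reduced-UV-B males (23.2 to 33.5). Potri.008G192600.1 made up 16.3% of GT8 counts in ambient-UV-B females (exact binomial 95% interval 7.32% to 29.7%), 11.1% in reduced-UV-B females (4.92% to 20.7%), 52.7% in ambient-UV-B males (45.9% to 59.4%) and 22.5% in reduced-UV-B males (15.4% to 31.0%). The GT8 share of that gene was therefore highest in ambient-UV-B males.

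Without Potri.008G192600.1, the other 11 GT8 genes summed to 9.48, 14.6, 25.2 and 21.7 CPM in the same order of libraries. Their log2 UV-B ratio in males was 0.21 (interval -0.20 to 0.63), against 0.93 (0.60 to 1.26) with that gene. In females it was -0.62 (interval -1.22 to -0.03) without it and -0.53 (-1.09 to 0.01) with it. Females had the lower sum under ambient UV-B also without that gene, with a log2 ratio over males of -1.41 (interval -1.97 to -0.88), and under reduced UV-B it was -0.58 (-1.06 to -0.10). The female UV-B ratio over the male one, as a log2 ratio of ratios for the 11 genes, was -0.83 (interval -1.57 to -0.10), and -0.63 (-1.37 to 0.10) with TMM factors, a scaling that centres the bulk of genes. Without Potri.008G192600.1 the interval of the male UV-B ratio thus took in 0, while that of females over males under ambient UV-B did not. Leaving out Potri.001G416800.1 instead gave a male UV-B interval of 0.65 to 1.36 on the log2 scale, and log2 ratios of -0.31 for UV-B in females (-0.89 to 0.27) and -2.12 for females over males under ambient UV-B (-2.61 to -1.66). The female UV-B ratio of the sum was thus -0.62 or -0.31 with 1 or the other of these genes left out, which sets no bound for other genes. Potri.002G246500.1, with 27 of 49 GT8 counts in ambient-UV-B females and 17 of 72 in reduced-UV-B females, had a ratio of opposite sign (log2 0.69). Leaving out Potri.002G246500.1 would thus make the female UV-B ratio of the sum more negative, by an amount that was not computed.

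**Figure D2:**
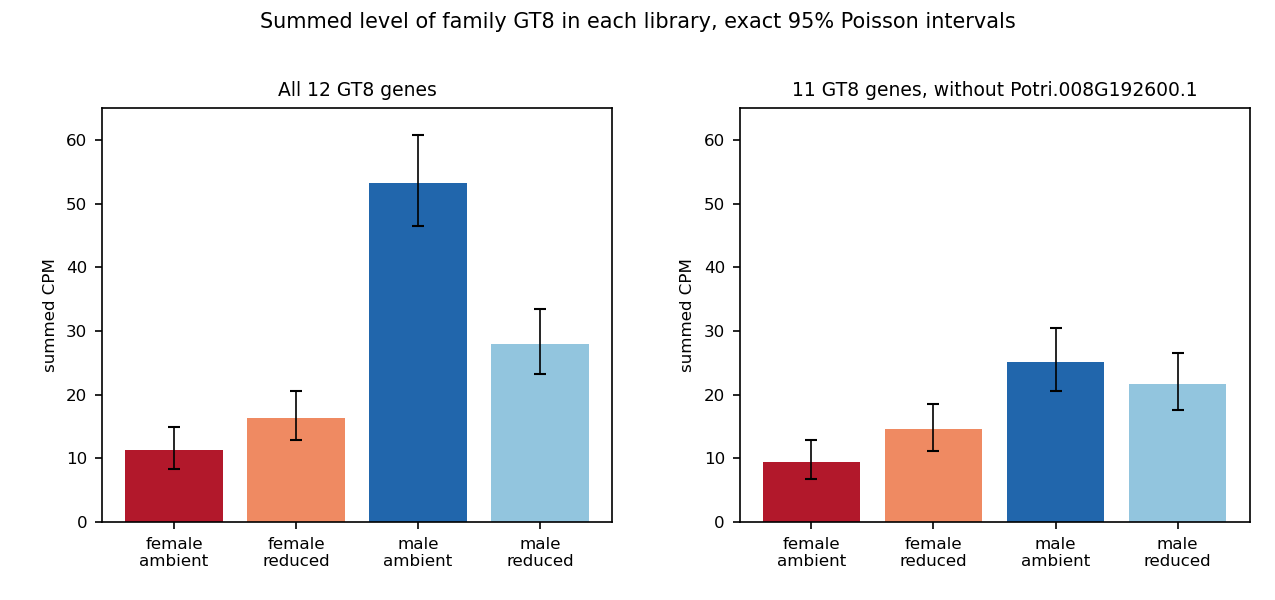
Summed CPM of the genes worded as CAZy family GT8 (vertical axes) in the 4 libraries (horizontal axes), for all 12 genes on the left and for the 11 genes without Potri.008G192600.1 on the right. Bars are sums and whiskers exact 95% Poisson intervals. The difference between the male libraries, 53.2 against 28.0 CPM on the left, shrinks to 25.2 against 21.7 CPM on the right, and the female bars stay below the male bars.

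The GT8 genes annotated to glucuronoxylan had their lowest summed level in ambient-UV-B females. Potri.001G416800.1 had 2 counts in ambient-UV-B females, 13 in reduced-UV-B females, 25 in ambient-UV-B males and 19 in reduced-UV-B males. Its level was lower in females than in males under ambient UV-B, with a log2 ratio of -3.68 (interval -6.81 to -1.68, adjusted p = 2.5e-05 by the exact test), the only other call among the 12 tested genes in these comparisons. That call was lost with the same assumed variation (adjusted p = 0.034 by edgeR's exact test). Its female UV-B ratio was -2.68 on the log2 scale (interval -5.87 to -0.53, adjusted p = 0.056 by the exact test), and its male one was 0.42 (-0.50 to 1.36).

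Potri.002G132900.1, with the same term and the terms phyllome development and cell wall modification, had 2, 6, 13 and 26 counts in the same order of libraries. It was lower in the female library at each UV-B level, with log2 ratios over males of -2.74 under ambient UV-B (interval -5.93 to -0.60) and -2.15 under reduced UV-B (-3.72 to -0.84). Neither passed the threshold, with adjusted p = 0.016 and 0.0019 by the exact test. In males its log2 UV-B ratio was -0.97 (interval -2.06 to 0.04), opposite in sign to that of Potri.008G192600.1. The third such GT8 gene, Potri.011G132600.1, had 2, 3, 2 and 6 counts, too few to tell its libraries apart.

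Summed, these 3 genes had 6 counts in ambient-UV-B females and 22 in reduced-UV-B females, against 40 in ambient-UV-B males and 51 in reduced-UV-B males. In CPM the sums were 1.39, 5.01, 9.51 and 11.9. The log2 UV-B ratio of the sum was -1.85 in females (interval -3.44 to -0.51) and -0.32 in males (-0.96 to 0.30). This grouping by annotation was made after the values were known, and the intervals cover counting error only. It leaves out the GT43 gene with the same term, Potri.007G047500.1, with 10, 23, 11 and 12 counts in the same order of libraries.

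The GT8 gene annotated to pectin synthesis, Potri.002G246500.1, differed least between libraries among the GT8 genes with 50 or more counts. The only others of that depth were the called genes Potri.008G192600.1 and Potri.001G416800.1. Potri.002G246500.1 had 27 counts in ambient-UV-B females, 17 in reduced-UV-B females, 39 in ambient-UV-B males and 27 in reduced-UV-B males. Its log2 UV-B ratio was 0.56 in males (interval -0.19 to 1.32) and 0.69 in females (-0.24 to 1.66). Neither interval lies off 0, and the ratio of the sexes' ratios was 0.13 (log2, interval -1.09 to 1.37). This gene supplied the largest part of the GT8 counts of ambient-UV-B females, 27 of 49.

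The GT8 genes with the term carbohydrate metabolic process were few in counts. Potri.013G146200.1 had 2 counts in ambient-UV-B females and 10 in reduced-UV-B females, and 9 in ambient-UV-B males and 3 in reduced-UV-B males. The directions were opposite in the sexes, with log2 UV-B ratios of -2.30 in females (interval -5.53 to -0.07) and 1.61 in males (-0.39 to 4.13), but the test of the difference did not pass (adjusted p = 0.054 by the exact test on the 4 counts). Potri.016G001700.2 had 6, 6, 2 and 0 counts, and was thus the only GT8 gene with at least 10 counts to have more in each female library than in either male library. Potri.019G105100.1 was listed with 2 counts in reduced-UV-B females and 2 in reduced-UV-B males.

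The GT8 genes without a process term, other than Potri.008G192600.1, were at 0 counts in ambient-UV-B females. Potri.007G031700.1 had 0 and 5 counts in females under ambient and reduced UV-B, and 7 and 4 in males. Potri.010G129400.1 had 0 counts in each female library and 6 counts in each male library, a level at least 2.06-fold lower in females than in males under ambient UV-B against the floor of 3 counts per library, which leaves out the error of the male count. The exact 95% interval of that log2 ratio reaches up to -0.28. The remaining Potri.004G124500.2 had 3 counts in ambient-UV-B males and Potri.008G116900.1 had 2 counts in reduced-UV-B females, with 0 in the other libraries. Of these 4 genes, Potri.007G031700.1 and Potri.010G129400.1 were tested and passed in no comparison, while the others had too few counts to be tested.

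The families with 1 gene each had other orders of libraries than the GT8 sum. Potri.007G047500.1 of family GT43, annotated to glucuronoxylan and glucuronosyltransferase activity, had 10 counts in ambient-UV-B females, 23 in reduced-UV-B females, 11 in ambient-UV-B males and 12 in reduced-UV-B males. Its highest library was thus reduced-UV-B females, with a log2 UV-B ratio of -1.18 in females (interval -2.41 to -0.05, adjusted p = 0.16 by the exact test) and -0.10 in males (-1.42 to 1.21). Under ambient UV-B its ratio of females over males was -0.18 (interval -1.57 to 1.20), which turned to 0.0098 with TMM factors.

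Potri.013G082200.1 of family GT2 had 0 counts in ambient-UV-B females, 4 in reduced-UV-B females, 2 in ambient-UV-B males and 12 in reduced-UV-B males. It had fewer counts under ambient than under reduced UV-B in each sex, with a log2 ratio of -2.56 in males (interval -5.76 to -0.39, adjusted p = 0.072 by the exact test). Potri.002G256200.1 of family GT47, annotated to the Golgi membrane and to glucan biosynthesis and fucose metabolism, had 3 and 8 counts in females under ambient and reduced UV-B and 0 in each male library. Under reduced UV-B its level in females was at least 2.60-fold higher than in males against the floor of 3 counts, which leaves out the error of the female count. The exact 95% interval of that log2 ratio starts at 0.73 (adjusted p = 0.031 by the exact test, not past the threshold).

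The comparisons across all genes used the 10741 genes with at least 10 counts. A gene was called where an exact test on its counts gave an adjusted p below 0.001 and its CPM differed at least 2-fold. In the UV-B comparison in males, Potri.008G192600.1 was called higher and no glycosyltransferase lower, so 1 of 12 was called higher against 2.46% of all tested genes, and 0 of 12 lower against 1.46%. Over all genes the split was 264 higher and 157 lower, and 117 and 232 with TMM factors. Of the 12 genes 7 had the higher CPM under ambient UV-B and 4 the lower, with a median log2 ratio of 0.22 beside 0.11 over all tested genes (0.03 and 0.10 with 0 counts set at 3). Among the 7, Potri.010G129400.1 had 6 counts in each male library and was higher through the library totals alone. At an unadjusted p below 0.05 there was 1 higher (Potri.008G192600.1) and 1 lower (Potri.013G082200.1), against 18.4% and 8.81% of all tested genes. By 2-fold alone 3 were higher and 2 lower, against 17.4% and 15.6% of all tested genes, and 19.7% and 18.4% of the 7883 genes with 11 to 161 counts, the range of the 12. The higher ones include Potri.016G001700.2, with 2 counts under ambient and 0 under reduced UV-B.

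In the UV-B comparison in females 0 of 12 were called higher and 0 lower, against 1.46% and 1.52% of all tested genes. At an unadjusted p below 0.05 there were 0 higher and 3 lower, namely Potri.001G416800.1, Potri.013G146200.1 and the GT43 gene, against 12.1% and 11.3% of all tested genes. The CPM was lower under ambient UV-B for 8 of the 12 and higher for 3. Among the 3, Potri.008G192600.1 and Potri.016G001700.2 had equal counts in the female libraries (8 and 8, 6 and 6). Their direction came from the library totals alone. By 2-fold or more 7 were lower and 0 higher, 2 of the 7 through a count of 0. By that fold alone 16.4% of all tested genes were lower and 16.4% higher, and in the count range of the 12 genes 19.1% were lower and 18.9% higher. The median log2 ratio was -1.20 for the 12 and 0.02 for all tested genes, and -0.64 and 0.02 with 0 counts set at 3.

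**Figure D3:**
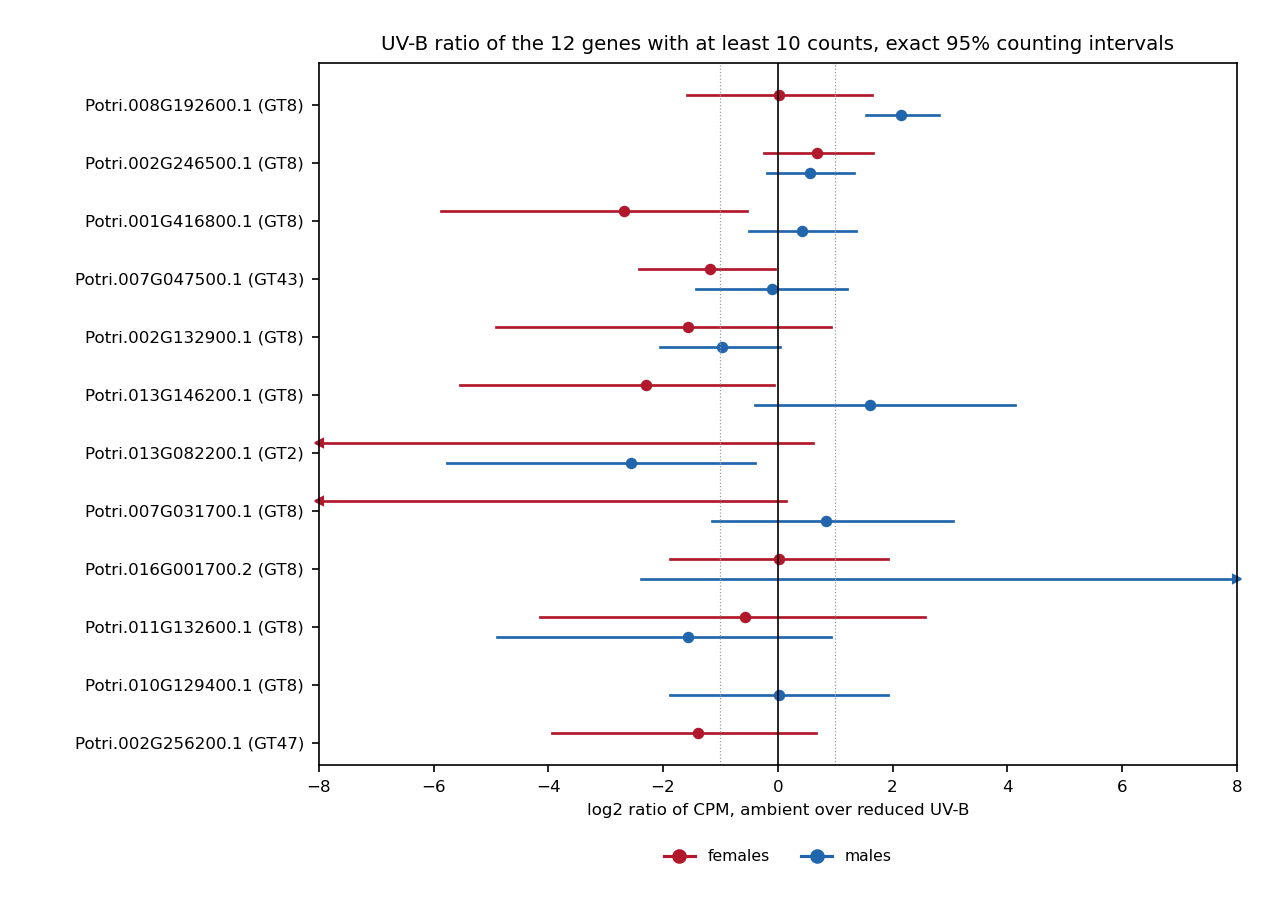
Log2 ratio of CPM, ambient over reduced UV-B (horizontal axis), for the 12 glycosyltransferase genes with at least 10 counts, in females (red) and males (blue). Points are ratios and lines exact 95% counting intervals; an arrow marks an interval with no limit, drawn without a point where 1 count is 0, and nothing is drawn where both counts are 0. Potri.008G192600.1 in males, at 2.15, lies to the right of the 2-fold line with its whole interval, and no other gene has an interval wholly above 0.

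The difference between the sexes in the UV-B ratio was tested on the 4 counts of each gene. Among the 12 genes 0 were called with the higher and 0 with the lower ratio in females, against 1.03% and 2.02% of all tested genes (111 and 217, or 157 and 126 with TMM factors). At an unadjusted p below 0.05, 4 of the 12 had the lower ratio in females and 0 the higher, against 14.5% and 7.59% of all tested genes. They were Potri.008G192600.1, Potri.001G416800.1, Potri.013G146200.1 and Potri.007G031700.1, with adjusted p of 0.064, 0.050, 0.054 and 0.18 by the exact test. For Potri.008G192600.1 the log2 ratio of ratios was -2.13 (interval -3.87 to -0.37), and for Potri.001G416800.1 it was -3.10 (-6.40 to -0.67). The higher level of Potri.008G192600.1 under ambient UV-B in males is therefore not shown to differ from its UV-B ratio in females.

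The comparison of the sexes gave its calls under ambient UV-B. There 0 of 12 glycosyltransferases were called higher in females and 2 lower, Potri.008G192600.1 and Potri.001G416800.1, against 3.66% and 7.69% of all tested genes (393 and 826, or 551 and 624 with TMM factors). Of the 12 genes 10 had the lower CPM in females and 2 the higher. Among the 10, Potri.011G132600.1 had 2 counts in each sex and was lower through the library totals alone. By 2-fold or more 7 were lower, 3 of them through a count of 0. This stands against 26.7% of all tested genes and 28.8% of those in the count range of the 12. Higher by 2-fold or more were 2, against 19.8% and 22.7%, and these include the GT47 gene at 3 counts in females and 0 in males. At an unadjusted p below 0.05 the count was 6 lower and 0 higher, against 23.6% and 14.7%. The median log2 ratio was -2.16 for the 12 and -0.11 for all tested genes, and -0.81 and -0.08 with 0 counts set at 3.

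Under reduced UV-B 0 of 12 were called higher in females and 0 lower, against 4.66% and 5.9% of all tested genes. At an unadjusted p below 0.05, 4 were lower and 2 higher, against 19.2% and 17.8%. By 2-fold alone 5 were lower and 3 higher, against 23.9% and 20.2% of all tested genes, and 26.4% and 21.6% of those in the count range of the 12. Through a count of 0, these include Potri.010G129400.1 among the lower, and Potri.002G256200.1 and Potri.016G001700.2 among the higher. The CPM was lower in females for 7 of the 12 and higher for 5, with a median log2 ratio of -0.63 beside -0.04 over all tested genes (-0.64 and -0.04 with 0 counts set at 3). The genes with the higher CPM in females included the GT43 and GT47 genes, and the pectin gene Potri.002G246500.1 had a log2 ratio of -0.70 (interval -1.67 to 0.22), close to its -0.57 (-1.33 to 0.17) under ambient UV-B.

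**Figure D4:**
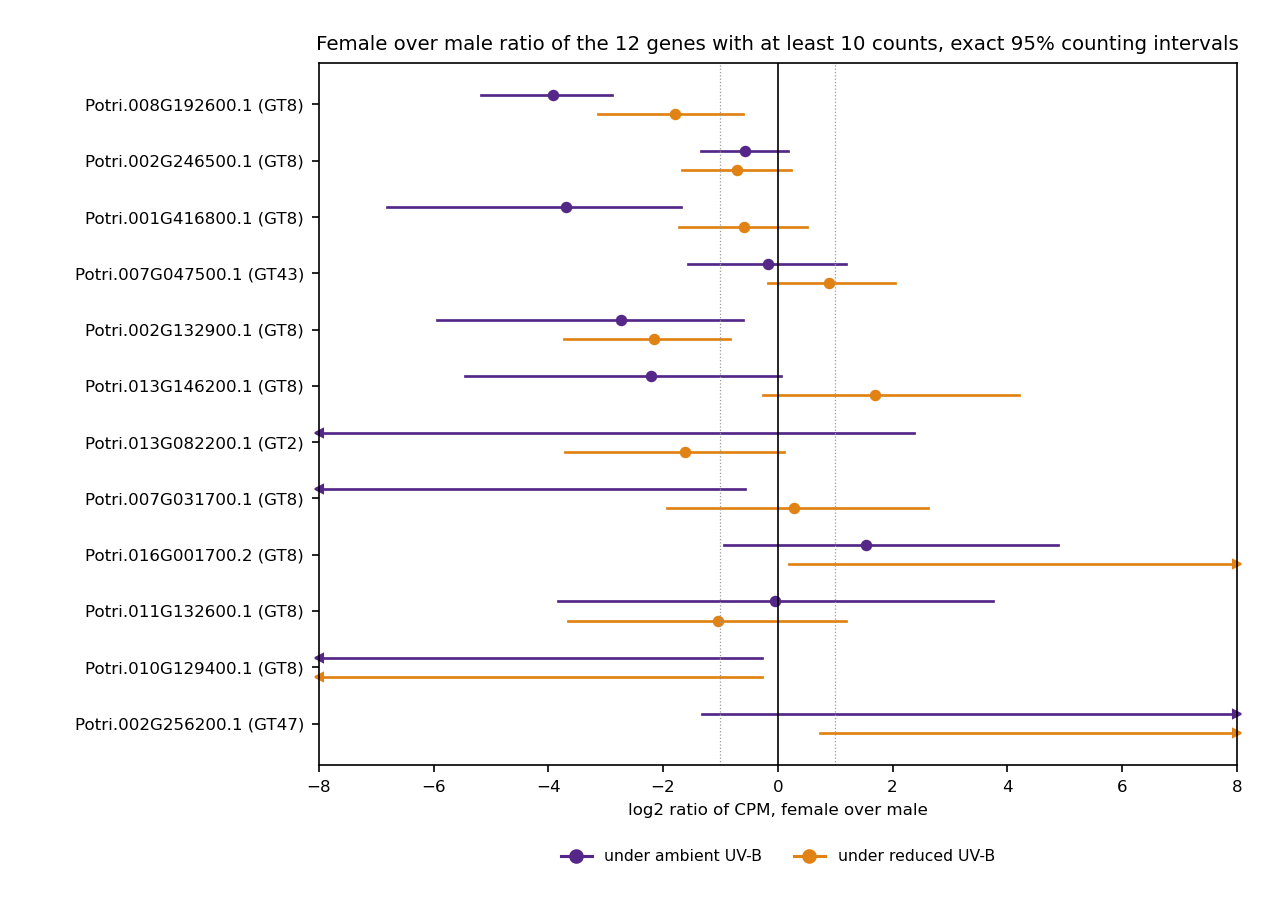
Log2 ratio of CPM, female over male (horizontal axis), for the 12 glycosyltransferase genes with at least 10 counts, under ambient UV-B (purple) and under reduced UV-B (orange). Points are ratios and lines exact 95% counting intervals; an arrow marks an interval with no limit, drawn without a point where 1 count is 0. Potri.008G192600.1, at -3.92, and Potri.001G416800.1, at -3.68, have the lowest ratios under ambient UV-B among genes with a count in each library, and the GT47 gene at the foot has an interval wholly above 0 under reduced UV-B.

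Related genes were listed by word patterns on their descriptions, and some stand in more lists than 1. The list of 24 tested glycosyltransferases without a CAZy wording had 0 members higher and 0 lower with UV-B in males, and 0 and 1 in females. It includes sucrose synthase 3, Potri.002G202300.1, which missed only the 2-fold criterion for UV-B. The log2 UV-B ratio of that gene was 0.86 in males (interval 0.61 to 1.12) and 0.59 in females (0.30 to 0.88). Of all tested genes, 2.46% were called higher and 1.46% lower with UV-B in males, and 1.46% and 1.52% in females. In females over males the list had 0 higher and 0 lower under reduced UV-B, and 0 and 3 under ambient UV-B. Beside these stand 3.66% of all tested genes called higher and 7.69% called lower under ambient UV-B, and 4.66% and 5.9% under reduced UV-B. Its median log2 ratio of females over males under ambient UV-B was -0.68, beside -2.16 for the 12 CAZy genes, or -0.81 for these with 0 counts set at 3. Outside the wording used to choose genes, the list also holds Potri.004G206000.1, described as of family GT8, with 0 and 7 counts in females under ambient and reduced UV-B and 4 and 6 in males. Galactinol synthase 1, Potri.008G189400.5, is in it too, with 9 and 5 counts in females under ambient and reduced UV-B and 5 and 2 in males. A relative of the GT43 gene described as GT43D, Potri.005G141500.1, was listed with 21 counts in ambient-UV-B females and 29 under reduced UV-B, and 66 and 53 in males. GT43D was lower in females than in males under ambient UV-B, with a log2 ratio of -1.69 (interval -2.47 to -0.96, adjusted p = 5.9e-06 by the exact test), unlike the GT43 gene above at -0.18, although the difference between these genes was not tested.

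The other listed genes called in females over males under ambient UV-B were Potri.016G086400.1 and Potri.012G064500.1, each described as a glycosyltransferase of no named family. Potri.016G086400.1, annotated to glucuronoxylan, had 0 counts in ambient-UV-B females, 22 in reduced-UV-B females, 38 in ambient-UV-B males and 48 in reduced-UV-B males. It was the 1 listed glycosyltransferase lower with UV-B in females, with a log2 ratio of -2.85 or below when 0 is set at 3 counts (adjusted p = 1.6e-05 by the exact test), and its UV-B ratio was lower in females than in males by the test of the difference (adjusted p = 6.5e-04 by the exact test). Potri.012G064500.1 had 0 and 14 counts in females under ambient and reduced UV-B and 13 and 11 in males. Both had the fewest counts in ambient-UV-B females, as did Potri.001G416800.1. Uncalled genes of the list shared this, such as Potri.004G206000.1, while others did not, such as galactinol synthase 1.

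The 4 tested cellulose synthases, the GT2 enzymes that the choice of genes left out, had 0 members higher and 0 lower with UV-B in males and 0 and 2 in females. In females over males 1 was higher and 1 lower under reduced UV-B, and 0 higher and 1 lower under ambient UV-B. The shares of all tested genes called higher and lower with UV-B were 2.46% and 1.46% in males and 1.46% and 1.52% in females. Glycoside hydrolases, which cut the bonds that glycosyltransferases make, had 13 tested members, with 0 higher and 1 lower with UV-B in males and the same counts in females. The same gene was called in each sex, Potri.006G071200.1, described as the xyloglucan endotransglycosylase/hydrolase XTH-6. In females over males 2 of the 13 were higher and 3 lower under reduced UV-B, and 2 and 4 under ambient UV-B. Beside these stand 4.66% and 5.9% of all tested genes under reduced and 3.66% and 7.69% under ambient UV-B.

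The flavonoid list, made by wording, had 15 tested genes. It holds enzymes of flavonoid synthesis, genes described as flavonoid o-methyltransferase related, an isoflavone reductase-like protein and 1 described as a glucosyltransferase of anthocyanidins. The list had 1 member higher and 0 lower with UV-B in males and no call in females. In females over males 1 was higher and 4 lower under reduced UV-B, and 0 and 4 under ambient UV-B, beside the same shares of all tested genes. The isoflavone reductase-like gene, Potri.004G156700.1, was among the 4 lower at each UV-B level. The 3 tested carbohydrate esterases and lyases and the 2 tested nucleotide sugar genes had no call in these comparisons. Potri.014G149700.1, described as a pectinesterase, missed only the 2-fold criterion. It had 8872 and 15133 counts in females under ambient and reduced UV-B, and 15347 and 9582 in males. Its log2 UV-B ratio was 0.71 in males (interval 0.67 to 0.74) and -0.75 in females (-0.79 to -0.71). By the test of the sexes' UV-B ratios, 1 cellulose synthase and 1 esterase or lyase, this pectinesterase, had the lower ratio in females. With the higher ratio there was 1 glycoside hydrolase, again XTH-6. The list of glycosyltransferases without a CAZy wording also had 1 lower, Potri.016G086400.1, which carries the glucuronoxylan term. Of all tested genes 2.02% had the lower ratio in females by this test and 1.03% the higher. By gene ontology, 26 further tested genes carried UDP-glycosyltransferase activity, with 0 higher and 3 lower in females over males under ambient UV-B, 1 and 0 under reduced UV-B, beside 7.69% of all tested genes called lower under ambient and 4.66% called higher under reduced UV-B, and no call with UV-B in either sex. Of 7 further genes with the glucuronoxylan term 2 were lower in females over males under ambient UV-B, the already named Potri.016G086400.1 and GT43D. With UV-B in females 1 of the 7 was lower, again Potri.016G086400.1. Of 5 further genes with the pectin term none was called. Beside these lists, 2.46% of all tested genes were called higher and 1.46% lower with UV-B in males, and 1.46% and 1.52% in females. In females over males the shares were 3.66% and 7.69% under ambient UV-B, and 4.66% and 5.9% under reduced UV-B. Of the uncalled genes with the glucuronoxylan term, Potri.012G109200.1 had 20 counts in each female library, and 6 and 12 in males under ambient and reduced UV-B. Potri.002G107300.1 had 21 and 19 in females and 23 and 16 in males. Neither these nor Potri.009G006500.1 had the fewest counts in ambient-UV-B females, while Potri.014G040300.1 and Potri.012G109600.1 did. The gene ontology lists were taken after the terms of the 15 genes were seen.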

How the data were processed

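Tags of 17 bp next to NlaIII sites were made from oligo-dT cDNA and counted with the Illumina pipeline, per the labels' protocols. The deposited raw counts per gene carry the library total in each header. The deposited columns headed TPM are CPM: recomputed from counts and header totals, 100% were within 0.005. The sources used here do not give the assignment of tags to genes or the genome build. The labels also mention 3 biological replicates of the extraction, but list 1 library per group, each sequenced on a lane of its own, so lane and group cannot be told apart.

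Members, lists and tests were chosen with earlier results of these data known. Genes with at least 10 counts over the 4 libraries were tested. With 1 library per group no single pair of libraries leaves a degree of freedom for edgeR's quasi-likelihood test, so an exact two-sided conditional binomial test compared libraries given the header totals, with Benjamini-Hochberg adjustment over 10741 genes (SciPy 1.17.1). The sexes' UV-B ratios were compared by an exact conditional test (noncentral hypergeometric). Both, and all intervals, cover counting error only and treat PCR-copied tags as independent. Two-sided p-values and the equal-tailed 95% intervals can differ at the margin. Medians used 0.5 added to each count. Genes were named by a rule if called, or top in counts in their family, or at 0 in 1 sex with at least 10 counts in each library of the other. By it Potri.008G192600.1, Potri.001G416800.1 and the GT43, GT2 and GT47 genes were named; all other genes in the text were named after their values were seen, so that each member is accounted for. Alternatives were TMM factors (edgeR 4.0.16), DESeq2 1.42.0 size factors, sums of listed rows as totals, other filters and thresholds, an assumed spread between pools and, added after seeing the data, sums without single genes and an edgeR quasi-likelihood fit of sex plus UV-B over the 4 libraries.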

Additional observations from a re-analysis of the deposited data

How the results depend on the processing

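Each group has 1 library, so no replicate could be left out. An edgeR quasi-likelihood fit of sex plus UV-B over the 4 libraries, chosen after seeing the data, has 1 residual degree of freedom and tests each effect with the other as a block, assuming that UV-B acts alike in the sexes. At adjusted p below 0.05 it called 0 of 10741 genes for either effect. At an unadjusted p below 0.05 it had 176 genes higher and 153 lower with UV-B, with 0 of the 12 glycosyltransferases among them. For sex it had 591 higher and 943 lower in females, with 0 and 2 glycosyltransferases, Potri.008G192600.1 (log2 -2.94, adjusted p = 0.16) and Potri.002G132900.1 (log2 -2.33, adjusted p = 0.20). Assuming that pools vary by a coefficient of variation of 0.3, the calls fell to 0 for UV-B in males (Potri.008G192600.1, adjusted p = 0.26 by edgeR's exact test) and to 1 for females over males under ambient UV-B, where Potri.001G416800.1 had adjusted p = 0.034 and Potri.008G192600.1 kept its call (2.7e-04). Of all 10741 genes, 0 higher and 5 lower then stayed called for UV-B in males. For females over males under ambient UV-B 46 and 77 stayed called. By a 2-fold difference with no test, the counts were 5 (3 higher, 2 lower) for UV-B in males, 7 for UV-B in females, 8 (3 higher, 5 lower) for females over males under reduced UV-B and 9 (2 higher, 7 lower) under ambient UV-B. Each of these was reached in part through a count of 0. Under each of TMM factors, size factors, listed sums, no filter, 50 counts and, where run, 1.5-fold, the number of called glycosyltransferases in each direction was as reported. TMM factors shifted the median of all genes by -0.21 for UV-B in males and 0.19 for females over males under ambient UV-B. The male UV-B median of the glycosyltransferases was then 0.0083, or 0.023 with size factors, 0.011 with listed sums, 0.026 with no filter and 0.48 at 50 counts. The female UV-B median was -0.56 at 50 counts. For females over males the median was -0.037 with no filter under reduced UV-B. Under ambient UV-B it was -1.98, -1.97, -1.91, -1.97 and -1.98 under those settings in that order, and -1.70 with 1 added to each count. The GT43 ratio of females over males under ambient UV-B turned to 0.0098, 0.012 and 0.072 with TMM factors, size factors and listed sums. All 48 family sums rescaled by these 3 stayed within their Poisson intervals. Depth limits the single genes: 8 of the 12 tested had under 50 counts over the 4 libraries.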
